A study of Capra hircus with 3 samples.

Results

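Dividing cells of all lineages in goat liver were followed through their transcripts. A barcode, the tag that marks the RNA of 1 droplet, was selected on the raw counts of 6 genes and taken as dividing when TOP2A, CENPF, ANLN, BUB1B, KIF4A and ECT2 together had at least 4 unique molecular identifiers (UMIs, counted RNA molecules) and at least 3 of the 6 genes were detected. Of 25591 barcodes, 129 met this rule: 35 of 9375 in NASH-T, 39 of 8731 in NASH and 55 of 7485 in Con. The livers came from female goats aged 3 to 4 years, and their RNA was counted cell by cell. The NASH-T group (steatohepatitis tolerance) and the NASH group (non-alcoholic steatohepatitis) received the HRDS diet, and the Con group was healthy and received the LRDS diet. Livers were dissociated with 0.25% trypsin for 40 min and strained at 40 µm, and each library holds the joined cells of 5 livers from 1 group. Goat, pool and group therefore cannot be told apart, no test between groups is possible, and every interval below is a 95% interval of counting error only.

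A cell that divides copies its DNA in S phase, passes G2, separates its chromosomes in mitosis (M) and is then cut apart by cytokinesis. In adult liver, hepatocytes are long-lived and mostly rest outside the cycle, while resident macrophages (Kupffer cells), lymphocytes and antibody-producing plasmablasts can divide in place. The 6 genes of the rule act late in the cycle. TOP2A untangles copied DNA, CENPF and BUB1B act at kinetochores, where BUB1B holds the spindle checkpoint, KIF4A is a motor on chromosome arms, and ANLN and ECT2 organise the ring that cuts the cell. Their transcripts are highest in G2 and M, so a cell early in S phase may be missed by the rule.

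The values of the 6 genes chose the dividing barcodes and are given as a description. TOP2A had 479 UMIs per 1000000 UMIs (counts per 1000000, or CPM) in dividing barcodes of NASH-T, 486 in NASH and 496 in Con, against 2.04, 1.74 and 2.89 CPM in the other barcodes of NASH-T, NASH and Con. CENPF had 768 CPM in dividing barcodes of NASH-T, 786 in NASH and 601 in Con, and BUB1B had 568, 545 and 474 CPM in the dividing barcodes of NASH-T, NASH and Con. KIF4A had 368 CPM (287 to 465) in NASH-T, 511 (417 to 619) in NASH and 485 (407 to 573) in Con. The sum of the 6 genes, which the rule held to at least 4 UMIs in every library, had a median of 14 UMIs a barcode in NASH-T (range 4 to 37), 11 in NASH (4 to 45) and 14 in Con (4 to 46). All 6 genes were seen in 47 of the 129 barcodes, and 76 had 10 or more UMIs of them. Just inside the threshold lay 10 barcodes with exactly 4 UMIs. Just outside lay 13 barcodes with 3 UMIs in 3 genes (6 in NASH-T, 5 in NASH, 2 in Con) and 33 with 4 or more UMIs in only 1 or 2 genes (6 in NASH-T, 7 in NASH, 20 in Con). At least 1 UMI of the 6 genes was also present in 4.49% of the other barcodes of NASH-T, 3.66% of NASH and 5.02% of Con, which is the level that a single UMI cannot be told from.

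Dividing barcodes were deeper than the rest. Their median was 4062 UMIs in NASH-T, 3433 in NASH and 4066 in Con, against 2197, 2551 and 2452.5 UMIs in the other barcodes of NASH-T, NASH and Con. A doublet caller marked 3 dividing barcodes in NASH-T, 1 in NASH and 1 in Con, of which 4 lay in mixed clusters and 1 was endothelial-like. Between 20 and 23 barcode sequences were shared by each pair of libraries, and none of these was dividing.

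Dividing cells were fewest in NASH-T and most frequent in Con. They made up 0.373% of barcodes in NASH-T (95% exact binomial interval 0.260 to 0.519%), 0.447% in NASH (0.318 to 0.610%) and 0.735% in Con (0.554 to 0.955%). The share in NASH-T was 0.508 times that in Con (exact conditional interval 0.323 to 0.790), and the share in NASH was 0.608 times that in Con (0.393 to 0.933). NASH-T and NASH could not be separated at this depth, with a ratio of 0.836 (0.514 to 1.35). With every barcode thinned to 2000 UMIs and shallower ones left out, 26 dividing barcodes in NASH-T (0.507%), 25 in NASH (0.477%) and 33 in Con (0.744%) remained. The order of NASH-T and NASH turned round under thinning, and both intervals against Con then reached past 1.

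Lineages were read from clusters made without cell cycle genes and named from marker genes. The 129 dividing barcodes comprised 49 macrophage-like, 32 T or NK cell-like, 15 hepatocyte-like, 12 plasma cell-like, 7 endothelial-like, 4 B cell-like and 1 stellate- or fibroblast-like barcode, and 9 barcodes of clusters that mixed hepatocyte markers with another class. No dividing barcode was found among cholangiocyte-like barcodes (0 of 228), mast cell or basophil-like barcodes (0 of 82) or the unnamed clusters. In the cholangiocyte-like and mast cell or basophil-like classes a count of 0 still allows a share of up to 1.60% and 4.40%. Macrophage-like barcodes were 42.9% of the dividing barcodes in NASH-T, 41.0% in NASH and 32.7% in Con. Hepatocyte-like barcodes were 2.86% of them in NASH-T, 7.69% in NASH and 20.0% in Con. Named from markers alone, without clusters, 90 of the 129 barcodes kept their class. The 9 barcodes of mixed clusters could not, because markers alone give no mixed class. Among all named barcodes 89.7% kept their class, so dividing barcodes kept it less often.

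**Figure D1:**
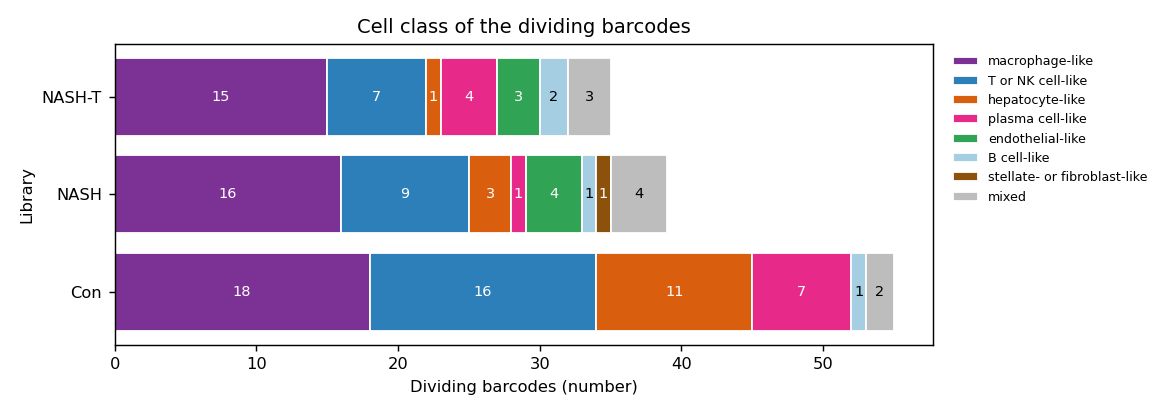
Number of dividing barcodes (horizontal axis) in each library (rows), coloured by cell class, with each count printed in its block. Con held 11 hepatocyte-like dividing barcodes, NASH 3 and NASH-T 1.

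Relative to the size of each lineage, with the libraries pooled and among classes with at least 4 dividing barcodes, plasma cell-like barcodes divided most often and hepatocyte-like barcodes least. Over the 3 libraries the dividing share was 3.50% of plasma cell-like barcodes (interval 1.82 to 6.03%), 1.16% of macrophage-like, 0.868% of B cell-like, 0.544% of T or NK cell-like, 0.346% of endothelial-like and 0.149% of hepatocyte-like barcodes (0.0836 to 0.246%). The order was not the same in each library: in Con the hepatocyte-like share (11 of 2864) lay above the endothelial-like one (0 of 379). Hepatocyte-like barcodes were the deepest of these classes, with a median of 4001.5 UMIs in those not dividing. That median was 2602 in macrophage-like and 1179 in T or NK cell-like barcodes, so their order is not free of depth. Thinned to 2000 UMIs, T or NK cell-like shares were 0.798% in NASH-T, 3.91% in NASH and 4.13% in Con. Macrophage-like shares were then 1.18%, 1.53% and 1.25% in NASH-T, NASH and Con. The T or NK cell-like share was thus the higher in NASH and Con only. Thinning left out 1606 of 1824 T or NK cell-like barcodes in Con.

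**Figure D2:**
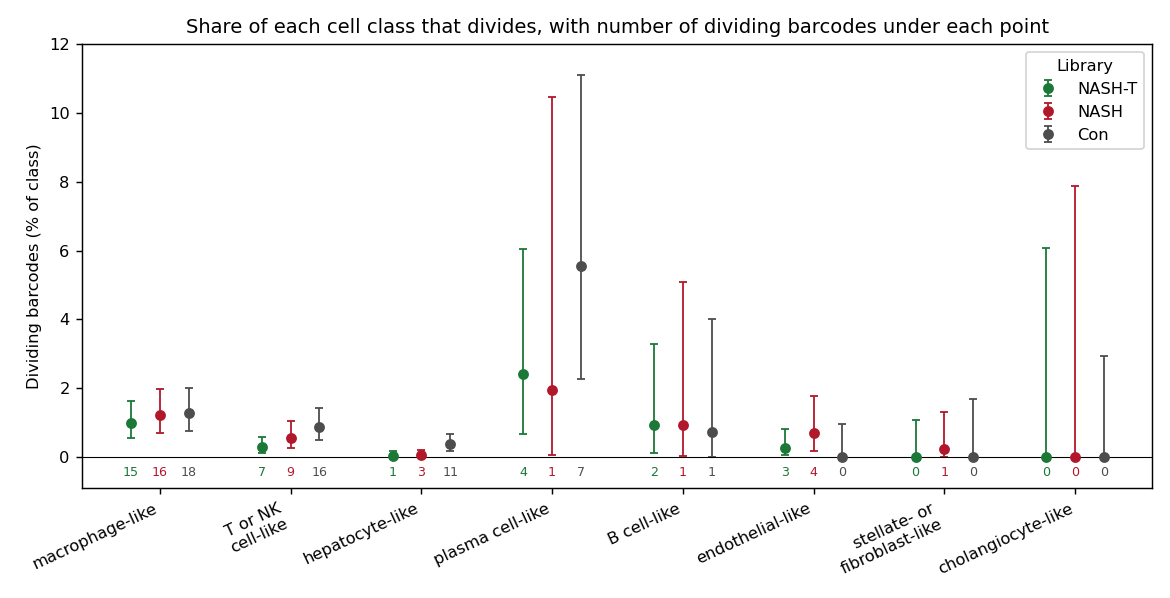
Dividing barcodes as a percentage of each class (vertical axis) in each library, with exact 95% binomial intervals and the number of dividing barcodes printed under each point. The hepatocyte-like share was 0.0321% in NASH-T, 0.0738% in NASH and 0.384% in Con.

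Hepatocytes are the main metabolic cells of the liver. Dividing hepatocyte-like barcodes numbered 1 of 3120 in NASH-T (0.0321%, interval 0.000811 to 0.178%), 3 of 4063 in NASH (0.0738%, 0.0152 to 0.216%) and 11 of 2864 in Con (0.384%, 0.192 to 0.686%). The share in NASH-T was 0.0834 times that in Con (0.00194 to 0.574), and that in NASH 0.192 times that in Con (0.0344 to 0.728). Without hepatocyte-like barcodes, the ratio of all dividing shares was 0.571 for NASH-T over Con (0.354 to 0.914) and 0.810 for NASH over Con (0.507 to 1.29). Below the threshold, the same 6 genes had 0.0461 UMIs per 10000 in the other hepatocyte-like barcodes of NASH-T, 0.0468 in NASH and 0.118 in Con, a description that is not independent of the rule. Thinned to 2000 UMIs, 1 dividing hepatocyte-like barcode of 2533 in NASH-T, 1 of 3455 in NASH and 6 of 2446 in Con remained, and the interval of NASH-T over Con then reached past 1. With lineages from markers alone, 3 dividing barcodes in NASH-T, 6 in NASH and 11 in Con were hepatocyte-like. With cell cycle genes kept in the clustering, 0, 1 and 0 barcodes in NASH-T, NASH and Con were, while mixed clusters then held 6, 8 and 12.

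The hepatocyte identity of the 11 dividing barcodes of Con was checked on marker counts. They held 35 to 663 UMIs of hepatocyte markers, a median of 107, with at most 1 UMI of T or NK cell markers and at most 2 of endothelial markers. They also held 3 to 34 UMIs of macrophage and 2 to 30 of cholangiocyte markers, at 7.61 and 11.9 UMIs per 10000, against 8.97 and 8.12 in the other hepatocyte-like barcodes of Con. From markers alone 10 of the 11 were hepatocyte-like and 1 cholangiocyte-like, and none was called a doublet. ALB, the plasma protein albumin, was seen in 10 of them, at 2402 CPM against 3826 CPM in the other hepatocyte-like barcodes of Con. APOB, the core protein of very low density lipoprotein, was seen in all 11, at 1186 CPM against 1576 CPM. CPS1, the entry enzyme of the urea cycle, had 6139 CPM in the dividing and 4869 CPM in the other barcodes. AFP, the fetal albumin-like protein of liver progenitors and some tumours, had 0 UMIs in all 15 dividing hepatocyte-like barcodes. Its level in the other barcodes is not given here, so this count is not read as a trait of dividing cells. The single dividing hepatocyte-like barcode of NASH-T also held 43 UMIs of macrophage markers, and 1 of the 3 in NASH, with 36975 UMIs, also held 27 UMIs of plasma cell and 23 of endothelial markers. The doublet caller marked neither of these 2 barcodes.

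The 11 hepatocyte-like barcodes of Con came from a pair of clusters. A cluster led by HAL and CPS1, a histidine-degrading and a urea cycle enzyme that are periportal in mammalian liver, held 7 of them among 929 barcodes of Con. The same cluster held 0 of 1110 barcodes in NASH-T and 0 of 546 in NASH. A cluster led by FMO1 and the R-spondin receptor LGR5, a pericentral marker in mouse, held the other 4 among 1483 barcodes of Con, against 1 of 1387 in NASH-T and 0 of 400 in NASH. In NASH, 2 of the 3 dividing hepatocyte-like barcodes lay in the cluster led by FASN, the fatty acid synthase, which held 1489 barcodes of NASH. Libraries filled these clusters unequally, so cluster and group are partly confounded.

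Most cell cycle genes outside the rule were higher in the dividing hepatocyte-like barcodes of Con than in the others. These genes lie close to the choice of the barcodes, so the values are a description. Of 115 measured genes on 11 cell cycle lists, 95 were at least 2-fold higher and 9 at least 2-fold lower than in the other hepatocyte-like barcodes, with a median log2 ratio of 2.77, whereas 16% of all measured genes were higher and 33% lower to that extent, and the median over all genes was 0.37. DNA synthesis and repair genes were higher in 27 of 27 and spindle genes in 14 of 14. DIAPH3, a formin that shapes the actin of dividing cells, had 1295 CPM in dividing and 12.3 CPM in other hepatocyte-like barcodes of Con. POLA1, a subunit of the polymerase that primes DNA synthesis, had 415 against 76.2 CPM, and BRIP1, a helicase of fork repair, had 405 against 20.4 CPM. TPX2, a spindle assembly factor, had 435 against 64.5 CPM. Among genes of hepatocyte function and zonation, 3 of 25 were 2-fold higher and 4 were 2-fold lower in the dividing barcodes. FASN had 8 UMIs in 5 of the 11 barcodes.

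A list of 13 genes of S phase, chosen after these results were seen, was applied with the same threshold. It found 27 barcodes in NASH-T, 28 in NASH and 42 in Con, of which 58 of 97 were also dividing by the 6 genes. Among hepatocyte-like barcodes it found 2 in NASH-T, 2 in NASH and 11 in Con, and 2, 1 and 6 of those in NASH-T, NASH and Con were not found by the 6 genes. The ratio in hepatocyte-like barcodes was 0.167 for NASH-T over Con (0.0180 to 0.765) and 0.128 for NASH over Con (0.0138 to 0.587). NASH-T and NASH both lay below Con with either list, while the order of NASH-T and NASH between them differed. For the barcodes found by the S phase list alone, the ratio was 0.306 (0.0302 to 1.71) for NASH-T over Con and 0.117 (0.00255 to 0.968) for NASH over Con.

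Barcodes of the macrophage-like clusters were the most numerous dividing class in every library by clusters (15 in NASH-T, 16 in NASH and 18 in Con). By markers alone NASH held 8 macrophage-like and 10 B cell-like dividing barcodes. Macrophage-like barcodes divided at 0.987% in NASH-T (15 of 1519, interval 0.554 to 1.62%), 1.22% in NASH (16 of 1309, 0.700 to 1.98%) and 1.28% in Con (18 of 1408). The ratios were 0.772 for NASH-T over Con (0.362 to 1.62), 0.956 for NASH over Con (0.456 to 1.99) and 0.808 for NASH-T over NASH (0.372 to 1.74), none outside counting error. These dividing barcodes belonged to a pair of clusters. The cluster led by MSR1, ADGRE1 and TIMD4, a scavenger receptor, the F4/80 receptor and a phosphatidylserine receptor of Kupffer cells, held 11 of them in NASH-T, 8 in NASH and 16 in Con. The cluster led by GPNMB, GLDN and carboxypeptidase M (gene symbol CPM) held 4 in NASH-T (1.53% of 261 barcodes, 0.419 to 3.88%), 8 in NASH (2.52% of 317, 1.10 to 4.91%) and 2 in Con (0.467% of 428, 0.0566 to 1.68%). T or NK cell-like dividing barcodes numbered 7 in NASH-T, 9 in NASH and 16 in Con. The MSR1 cluster alone outnumbered them only in NASH-T.

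The dividing barcodes of these 2 clusters carried different genes. In the MSR1 cluster, the 35 dividing barcodes carried genes of their cluster, and those named next were at lower levels than in the other barcodes. C1QA, a chain of complement C1q, had 922 CPM in dividing and 1131 CPM in other barcodes, TIMD4 had 1091 and 1289 CPM, and MSR1 had 1296 and 1832 CPM. ADGRE1 had 386 CPM in dividing and 701 CPM in other barcodes, the mannose receptor MRC1 had 621 and 1214 CPM, and the haemoglobin receptor CD163 had 458 and 790 CPM. MERTK, a receptor for dying cells, had 729 CPM in dividing and 1377 CPM in other barcodes of that cluster. SLC40A1, the iron exporter ferroportin, had 1735 and 3801 CPM. Not every macrophage gene was clearly lower in the dividing barcodes of the MSR1 cluster. C1QC had 277 CPM in dividing and 278 CPM in other barcodes, and C1QB had 434 (339 to 546) and 478 CPM. CLEC4F had 133 (83.1 to 201) and 150 CPM, and CD68, with 8 UMIs, had 48.2 and 35.3 CPM. VSIG4 was lower, at 591 and 764 CPM, as was CSF1R, at 307 (229 to 404) and 356 CPM. In the GPNMB cluster, the 14 dividing barcodes carried some of the genes that led it and had 0 or few UMIs of others. Of the leading genes, PLBD1, a phospholipase B-like protein, had 1417 CPM in the 14 dividing and 687 CPM in the other barcodes, and PARM1 had 952 and 273 CPM. GPNMB, a lysosomal glycoprotein of lipid-laden macrophages, had 0 UMIs in the 14 against 364 CPM in the other 992 barcodes. The carboxypeptidase M gene had 2 UMIs against 695 counts per 1000000, and C1QA had 4 UMIs in 4 barcodes against 589 CPM. FLT3, the receptor tyrosine kinase of dendritic cells and their precursors, had 26 UMIs in 8 of the 14 dividing barcodes (526 CPM, 344 to 771) against 95.9 CPM in the other barcodes, where 10.7% had a UMI. Of these 26 UMIs, 19 lay in 6 barcodes of NASH, 1 in 1 barcode of NASH-T and 6 in 1 barcode of Con. FLT3 had 0 UMIs in the 35 dividing barcodes of the MSR1 cluster. AFF3, a nuclear factor abundant in lymphoid tissue, had 1863 CPM in the 14 dividing and 740 CPM in the other barcodes of the cluster. NASH held 73 of its 92 UMIs in the 14. Of other dendritic cell markers, CADM1 had 1174 CPM in the 14 dividing and 1337 CPM in the other barcodes. CLEC9A had 1 UMI and IRF8 had 3 UMIs in the 14, and XCR1, BATF3 and FCER1A had 0. Some macrophage genes were present too. MRC1 had 23 UMIs in 5 of the 14 (466 CPM, against 951 CPM in the others), and VSIG4, a complement receptor, had 17 UMIs in 7 (344 against 702 CPM). TIMD4 had 9 UMIs in 3 (182 against 317 CPM), with 7 of the 9 from 1 barcode of NASH. Other macrophage genes were lower by more. CD163 had 60.7 CPM in the 14 against 596 CPM in the others, MSR1 101 against 690 and CSF1R 60.7 against 224. MERTK had 182 against 1012 CPM, and SLC40A1 had 121 against 2012 CPM. The name macrophage-like was given to the cluster as a whole and was not set for these 14 barcodes, of which 4 came from NASH-T, 8 from NASH and 2 from Con. These genes were chosen after their values were seen.

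**Figure D3:**
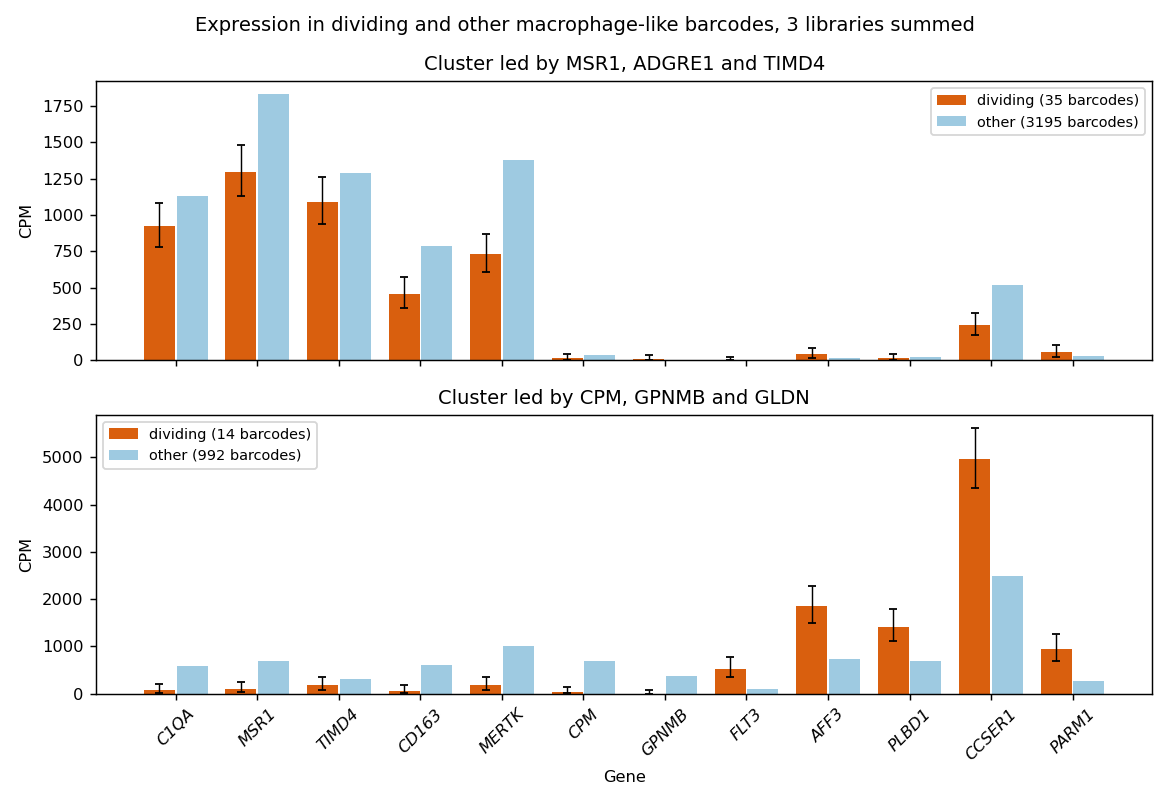
CPM (vertical axes, different ranges) of 12 genes in dividing (orange, with exact 95% Poisson intervals) and other (blue) barcodes of the pair of macrophage-like clusters, 3 libraries summed. Dividing barcodes of the MSR1 cluster carried C1QA, MSR1 and TIMD4, and those of the GPNMB cluster carried FLT3, AFF3, PLBD1 and CCSER1 with 0 UMIs of GPNMB. Most UMIs of FLT3, AFF3, PLBD1 and CCSER1 in the dividing barcodes of the GPNMB cluster came from the 8 of NASH.

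Cell cycle genes outside the rule were mostly higher in the dividing macrophage-like barcodes of all 3 libraries. Here too these genes lie close to the choice of the barcodes, and the values are a description. On the 11 lists, 93 of 105 measured genes were at least 2-fold higher in NASH-T, 91 of 106 in NASH and 90 of 108 in Con, against 16.9%, 14.7% and 11.7% of all measured genes in NASH-T, NASH and Con. The median log2 ratio was 3.22 in NASH-T, 3.24 in NASH and 2.88 in Con. Genes of the spindle were higher in 16 of 16, 16 of 16 and 17 of 17 cases in NASH-T, NASH and Con, and those of kinetochore and spindle checkpoint in 13 of 13, 14 of 14 and 14 of 14. The list of cyclins and cyclin-dependent kinases (CDKs) was less uniform: 3 of 6 measured genes were higher in NASH-T, 2 of 5 in NASH and 1 of 6 in Con.

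ASPM, a protein of the spindle poles, had 468 CPM in dividing macrophage-like barcodes of NASH-T, 422 in NASH and 265 in Con, against 0.442, 0.610 and 0 CPM in the other macrophage-like barcodes of NASH-T, NASH and Con. CDK1, the kinase that drives entry into mitosis, had 418 CPM in dividing barcodes of NASH-T, 233 in NASH and 265 in Con, and at most 1.10 CPM in the others. CIT, the citron kinase of the cleavage furrow, had 569 CPM in NASH-T, 757 in NASH and 564 in Con, and at most 2.75 CPM in the others. ASPM, CDK1 and CIT were named by a ranking of the ratio of dividing over other barcodes. As the rule selected barcodes on late cycle genes, the low values in the others are a description. PRR11, CDCA2, DEPDC1B, CKAP2, TTK, KIF23 and HJURP, named by the same ranking, had 127 to 870 CPM in dividing barcodes of the 3 libraries and at most 5.08 CPM in the others. TTK is a checkpoint kinase, KIF23 a motor of the central spindle and HJURP the chaperone of centromeric histone CENPA.

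The ranking also named 5 genes that were lower in dividing macrophage-like barcodes of every library. SLC40A1 had 1372 CPM in dividing barcodes of NASH-T, 873 in NASH and 1750 in Con, against 3734, 2952 and 3375 CPM in the others of NASH-T, NASH and Con. ULK2, an autophagy kinase, had 251 CPM in dividing barcodes of NASH-T, 422 in NASH and 691 in Con, against 1233, 1200 and 1245 CPM. PECAM1, an adhesion molecule of leukocytes and endothelium, had 134, 175 and 115 CPM in dividing barcodes of NASH-T, NASH and Con, against 375, 330 and 213 CPM in the others. CEPT1, a phospholipid synthesis enzyme, and PRKAG2, a subunit of AMP-activated kinase, had ratios of 0.306 to 0.553 over the 3 libraries. Of 16 measured genes on a list of macrophage subsets, 8 were at least 2-fold lower in NASH-T, 6 in NASH and 7 in Con, where 33%, 32.5% and 30.7% of all measured genes were lower. The counts of that list lay near this background in NASH and Con.

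**Figure D4:**
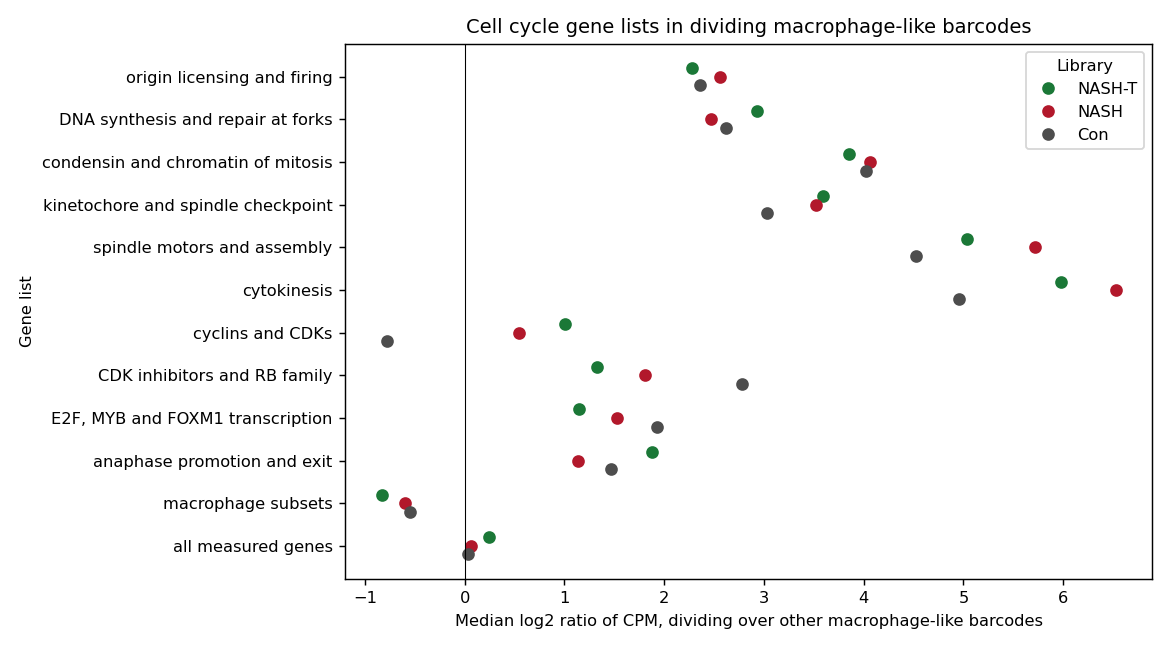
Median log2 ratio of CPM, dividing over other macrophage-like barcodes (horizontal axis), for 10 cell cycle lists, a list of macrophage subsets and all measured genes (rows) in each library. The lists of spindle motors and cytokinesis lay furthest right, between 4.53 and 6.53, and all measured genes lay between 0.03 and 0.25.

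Between libraries, few cell cycle genes differed by 2-fold in dividing barcodes. Over all classes, 3 of 120 measured genes were higher and 3 lower in NASH-T than in Con, where 5.91% and 9.79% of all measured genes were. In NASH against Con, 2 of 118 were higher and 8 lower (background 6.98% and 8.26%), and in NASH-T against NASH, 9 of 107 were higher and 3 lower (background 7.34% and 7.97%). These counts lay near or below the background. The same held for macrophage-like barcodes, apart from NASH against Con. Of 67 measured genes, 4 were at least 2-fold higher and 1 lower in NASH-T than in Con, where 6.18% and 6.87% of all measured genes were. Of 75 measured genes, 10 were higher and 0 lower in NASH than in Con, against a background of 9.03% and 8.83%. Of 67 genes, 2 were higher and 6 lower in NASH-T than in NASH, against 7.32% and 8.26%. Single genes outside the cycle differed by more, and all of these were picked for their difference, so their ratios are a description. Such genes made up 34 higher and 50 lower of 1109 eligible genes for NASH-T over Con, 73 and 75 of 1192 for NASH over Con, and 47 and 58 of 998 for NASH-T over NASH.

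HMOX1, the haem-degrading enzyme heme oxygenase 1, had 69 UMIs in 7 of 15 dividing macrophage-like barcodes of NASH-T (1154 CPM), 3 UMIs in 3 of 16 of NASH (43.7 CPM) and 71 UMIs in 9 of 18 of Con (817 CPM). Its ratio was 0.0534 for NASH over Con (0.0108 to 0.163) and 26.4 for NASH-T over NASH (8.68 to 131). In the macrophage-like barcodes that were not dividing, the same ratios were 0.730 and 1.27. Within the MSR1 cluster alone HMOX1 had 1 UMI in the 8 dividing barcodes of NASH and a ratio of 0.0329 to Con (0.000821 to 0.189). Up to 25 UMIs in NASH-T and 31 in Con came from 1 barcode.

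OAS1, an interferon-induced antiviral enzyme, had 29 UMIs in 6 of 15 dividing macrophage-like barcodes of NASH-T and 3 UMIs in 2 of 18 of Con, a ratio of 14.0 (4.35 to 72.1), and 17.2 (5.32 to 88.1) within the MSR1 cluster. In the macrophage-like barcodes that were not dividing, OAS1 had a ratio of 1.99. PCDHAC2 and SPATS2L had ratios of 5.19 (2.18 to 14.2) and 4.36 (1.89 to 11.2) for NASH-T over Con. ATP8B4, a phospholipid flippase, had a ratio of 4.36 (2.62 to 7.52), which was 1.27 (0.609 to 2.58) within the MSR1 cluster. UST, a sulfotransferase of glycosaminoglycans, was lower in NASH-T than in Con at a ratio of 0.310 (0.178 to 0.513), with 37 of its 89 UMIs in Con from 1 barcode. PDE7B, a phosphodiesterase of cyclic AMP, and PRKD3, a protein kinase D, were lower at 0.276 (0.130 to 0.530) and 0.284 (0.122 to 0.588).

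The 4 genes named as higher in NASH than in Con had most of their UMIs in the GPNMB cluster. AFF3 had 78 UMIs in 9 of 16 dividing macrophage-like barcodes of NASH and 1 UMI in 1 of 18 of Con, a ratio of 98.6 (17.2 to 3945), and 73 of the 78 UMIs lay in that cluster. PLBD1 had 43 UMIs in NASH and 0 in Con, at least 18.1-fold higher against a floor of 3 counts in the dividing macrophage-like barcodes of Con, and 41 of the 43 lay in that cluster. CCSER1 had 213 and 27 UMIs in NASH and Con, a ratio of 9.97 (6.67 to 15.5) that was 2.47 (1.20 to 5.10) within the MSR1 cluster, with 69 of the UMIs in NASH from 1 barcode. PID1, a protein of insulin signalling, had a ratio of 11.4 (4.90 to 32.4), with 25 of its 54 UMIs in NASH from 1 barcode. Within the MSR1 cluster its ratio was 9.34 (1.86 to 90.3), from 8 UMIs in NASH and 2 in Con. TMEM65, PPFIBP1 and ABCG2 were lower in NASH than in Con at ratios of 0.0421 (0.00103 to 0.254), 0.0998 (0.0197 to 0.315) and 0.174 (0.0664 to 0.384). ABCG2 is an efflux pump of porphyrins and drugs. Against NASH, NASH-T was higher in MAF, a macrophage transcription factor, at 7.06 (3.15 to 18.6), and in MSR1 at 3.03 (1.97 to 4.77), and lower in CCSER1, PID1, PARM1 and MEF2C at 0.243, 0.170, 0.157 and 0.270. NASH held 8 of the 14 dividing barcodes of the GPNMB cluster, and the ratios given next, within that cluster, were closer to 1 than over both clusters. For NASH over Con they were 7.80 (1.36 to 312) for AFF3, 2.08 (1.11 to 4.41) for CCSER1 and 1.23 (0.448 to 4.70) for PID1. For NASH-T over NASH they were 0.526 (0.365 to 0.742) for CCSER1 and 0.556 (0.280 to 1.02) for MEF2C. Within the MSR1 cluster the ratios of NASH-T over NASH for these genes were instead further from 1 than over both clusters. CCSER1 had a ratio of 0.211 (0.0614 to 0.591) there. MEF2C had 213 CPM in NASH-T and 1064 CPM in NASH there, with a ratio interval of 0.0890 to 0.410. PID1 had 0 UMIs in NASH-T and 8 in NASH in that cluster.

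T and NK cells, the lymphocytes of the liver, divided at 0.288% in NASH-T (7 of 2429, interval 0.116 to 0.593%), 0.554% in NASH (9 of 1625, 0.254 to 1.05%) and 0.877% in Con (16 of 1824, 0.502 to 1.42%). The ratio of NASH-T over Con was 0.329 (0.114 to 0.844), and NASH over Con was 0.631 (0.246 to 1.52). With lineages from markers alone, 6 dividing barcodes in NASH-T, 5 in NASH and 9 in Con were T or NK cell-like, and the log2 ratio of NASH-T over Con was -0.95 with an interval of -2.72 to 0.70. Named from clusters, T cell-like barcodes divided in 4 of 1456 cases in NASH-T, 7 of 1220 in NASH and 11 of 1246 in Con. NK cell-like barcodes divided in 1 of 722 cases in NASH-T, 2 of 290 in NASH and 2 of 420 in Con, and gamma-delta or type 17 T cell-like barcodes in 2 of 251 in NASH-T and 3 of 158 in Con. Among T cells, 15 of the 22 dividing barcodes lay in a cluster led by IL7R, the interleukin 7 receptor, ICOS, a costimulatory receptor, and IL1RL1, the interleukin 33 receptor. This cluster held 3 dividing of 245 barcodes in NASH-T, 5 of 246 in NASH and 7 of 397 in Con, against 1 of 941, 2 of 882 and 4 of 731 in a larger cluster led by THEMIS and CD6, a T cell signalling protein and a receptor of T cells. Within the IL7R cluster the dividing share was 1.22% of barcodes in NASH-T, 2.03% in NASH and 1.76% in Con.

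The dividing T or NK cell-like barcodes kept lymphocyte genes. THEMIS had 1297 CPM in dividing barcodes of NASH-T, 2339 in NASH and 2512 in Con, against 2659, 3082 and 2837 CPM in the others of NASH-T, NASH and Con. CSF1R, a macrophage receptor, had 0 UMIs in all 32. HAVCR2 (TIM-3), a checkpoint receptor of activated T cells, had 371 CPM in dividing barcodes of NASH-T, 451 in NASH and 323 in Con, against 156, 140 and 140 CPM in the others. It was seen in 15 of the 32. IKZF2 (Helios), a transcription factor of regulatory and innate-like lymphocytes, had 3011 CPM in dividing barcodes of NASH-T, 1354 in NASH and 1542 in Con, against 1313, 1436 and 1545 CPM. TOX, a factor of persistently stimulated T cells, had 1297, 1436 and 2139 CPM in dividing barcodes of NASH-T, NASH and Con, against 1913, 1837 and 1636 CPM. FOXP3, LAG3 and CCR7 had 0 UMIs in all 32, which held 86167 UMIs together. Their level in the other barcodes is not given here, so these counts of 0 are not read as a trait of dividing cells. LEF1, a factor of naive T cells, was seen in 14 of the 32, and its share in the other barcodes is not given here. The T cell cluster led by LEF1 held 0 dividing of 270 barcodes in NASH-T, 0 of 92 in NASH and 0 of 118 in Con. CD4 was seen in 6 and CD8A in 3 of the 32, with 9 and 3 UMIs, too few to divide the cells by these receptors. Of the cell cycle genes measured, 62 of 83 were at least 2-fold higher in dividing barcodes of NASH-T, 54 of 74 in NASH and 71 of 88 in Con, where 14.5%, 15.1% and 13.9% of all measured genes were. At least 2-fold lower were 11, 7 and 8 of them in NASH-T, NASH and Con, against 53.8%, 46% and 39.3% of all measured genes.

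Plasma cells secrete antibody, and their dividing precursors are called plasmablasts. Plasma cell-like barcodes divided in 4 of 166 cases in NASH-T (2.41%, 0.660 to 6.05%), 1 of 51 in NASH (1.96%, 0.0496 to 10.4%) and 7 of 126 in Con (5.56%, 2.26 to 11.1%). Of the 7 in Con, 1 held 20 UMIs of macrophage markers beside 3 of plasma cell markers, and only 4 UMIs of the rule genes. The ratio of NASH-T over Con was 0.434 (0.0931 to 1.71), and a difference was not detectable at this depth. With lineages from markers alone, 6 dividing barcodes in NASH-T, 4 in NASH and 11 in Con were plasma cell-like, and the log2 ratio of NASH-T over Con was -1.78 with an interval of -3.50 to -0.22. PRDM1 (BLIMP1), which directs the plasma cell programme, was seen in 10 of the 12 dividing barcodes, at 336 CPM in NASH-T, 375 in NASH and 406 in Con, against 944, 805 and 789 CPM in the other plasma cell-like barcodes. JCHAIN, the joining chain of secreted IgA and IgM, was seen in 8 of the 12 and DERL3, a protein of the secretory pathway, in 8. The B cell gene MS4A1 (CD20) had 0 UMIs in the 12, and PAX5, the B cell factor that PRDM1 represses, had 8 UMIs in 3 barcodes. The 4 dividing B cell-like barcodes carried 72 UMIs of BANK1, a B cell adaptor, and the 1 from Con also held 8 UMIs of plasma cell markers.

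Endothelial cells line the vessels and sinusoids. Dividing endothelial-like barcodes were found in 3 of 1077 barcodes of NASH-T (0.279%), 4 of 569 of NASH (0.703%) and 0 of 379 of Con. The count of 0 is compatible with a share of up to 0.969%, so a difference could not be detected. All 7 lay in the cluster led by STAB2, a hyaluronan scavenger receptor of sinusoidal endothelium, which had 71 UMIs in 6 of them, and VWF, a protein of larger vessels, had 1 UMI in 1. In NASH-T, 1 of the 3 held 34 UMIs of T or NK cell markers beside 34 of endothelial markers, and it is the endothelial-like barcode that the doublet caller marked. The 1 dividing stellate- or fibroblast-like barcode came from NASH and held 36 UMIs of its markers and 3 UMIs of hepatocyte markers.

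The position in the cycle was read from 59 S-list genes and 83 genes of G2 and M outside the rule. As the rule favours late genes, the balance is a description. The S-list made up a median of 33.1% of the UMIs of both lists in dividing barcodes of NASH-T, 29.9% in NASH and 28.7% in Con, and 32.2%, 28.6% and 29.5% in NASH-T, NASH and Con when thinned to 2000 UMIs. S-list UMIs exceeded G2 and M UMIs in 4 of 35 dividing barcodes of NASH-T, 1 of 39 of NASH and 8 of 55 of Con. Dividing barcodes carried 71.0 S-list UMIs per 10000 in NASH-T, 59.7 in NASH and 62.1 in Con, against 8.38, 7.74 and 9.04 in the other barcodes of NASH-T, NASH and Con. At least 3 UMIs of 9 genes of G2 and mitosis were found in 16 barcodes of NASH-T (45.7%, 28.8 to 63.4%), 14 of NASH (35.9%, 21.2 to 52.8%) and 15 of Con (27.3%, 16.1 to 41.0%), with intervals that overlap. At this number of cells the libraries could not be separated in phase.

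**Figure D5:**
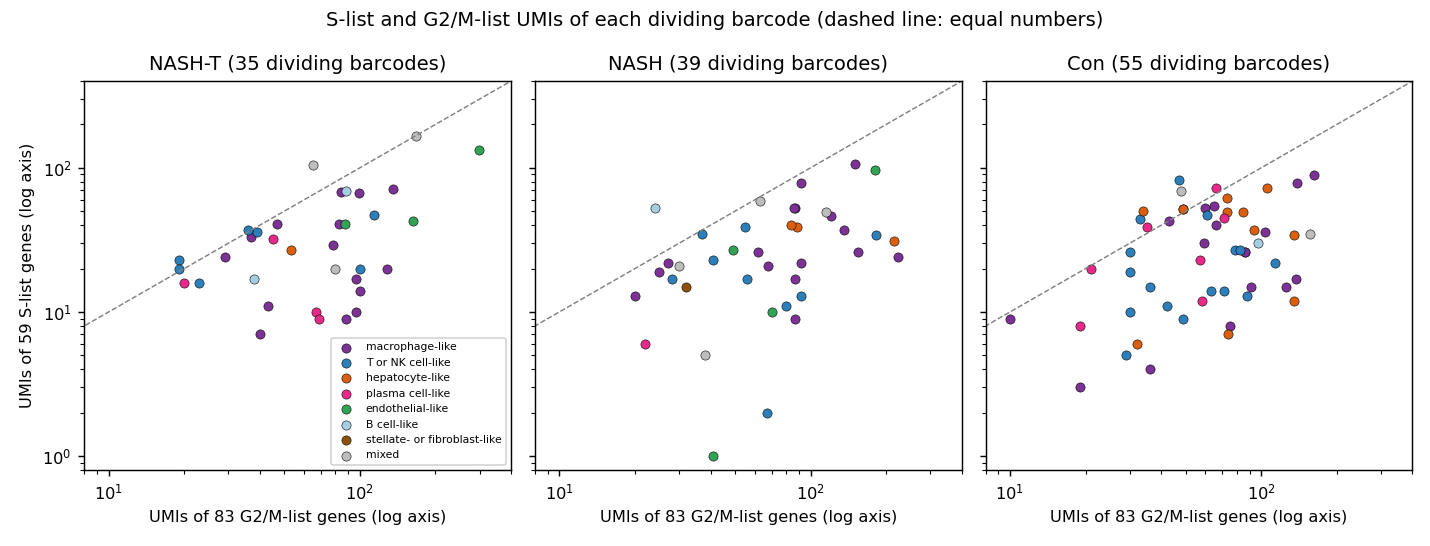
UMIs of 59 S-list genes (vertical log axis) against UMIs of 83 G2/M-list genes (horizontal log axis) for each dividing barcode, 1 panel per library, coloured by class, with a dashed line of equal numbers. Barcodes above the line numbered 4 in NASH-T, 1 in NASH and 8 in Con.

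Among the 11 dividing hepatocyte-like barcodes of Con, the 7 of the HAL and CPS1 cluster had an S-list share of 28.2 to 59.5% and the 4 of the FMO1 and LGR5 cluster one of 8.16 to 20.1%. The ranges of these clusters did not overlap in Con, and the split was seen after the values were known. The 1 dividing barcode of the FMO1 and LGR5 cluster in NASH-T had a share of 33.75%, inside the range of the HAL and CPS1 cluster in Con. Other genes of the cycle lists, summed over all dividing barcodes, were high in dividing barcodes of each library. ATAD2, a chromatin factor of S phase, had 1315 CPM in dividing barcodes of NASH-T, 1026 in NASH and 995 in Con, and SMC4, a condensin subunit, had 705, 761 and 640 CPM in NASH-T, NASH and Con. RRM2, the subunit of ribonucleotide reductase that is made for DNA synthesis, had 84.2 CPM in dividing barcodes of NASH-T, 34.4 in NASH and 56.2 in Con, against 0.340, 0.452 and 0.476 CPM in the others. RB1, the retinoblastoma protein that restrains entry into S phase, had 547 CPM in dividing barcodes of NASH-T, 398 in NASH and 359 in Con, against 148, 120 and 148 CPM in the others. CDKN1A (p21), an inhibitor of CDKs, had 1 UMI over all 129 dividing barcodes. Its level in the other barcodes is not given here, so this count is not read as a trait of dividing cells.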

How the data were processed

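Single-cell RNA of goat liver was measured in 3 libraries, each pooled from 5 livers, which are the 3 groups. The submitters' processing notes name Cell Ranger 7.0.0, and the deposited values are raw UMI counts. Which genome build was used is not given in the sources used here. Libraries held 29572158 UMIs in NASH-T, 31195014 in NASH and 25506238 in Con, every barcode with at least 500, and 27271 genes, of which 9958 carry an identifier only. MKI67 and several other cycle genes were not analysed here, because no symbol in the matrices names them.

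All deposited barcodes were used. The members and gene lists were chosen with earlier results of these data known. Counts were scaled to 10000 per barcode, and 2000 variable genes without 25 cell cycle genes, 30 components, 15 neighbours and Leiden clustering (scanpy 1.11.5, resolution 0.8, seed 0) gave 27 clusters. A cluster took the marker set with the highest mean log2 fold (20 CPM added), with at least 3 markers at 2-fold, and clusters with 0.4 or more of the hepatocyte marker level beside another class were called mixed. These limits on names were chosen after the clusters were known. Doublets were called with Scrublet (expected rate 0.06) and kept.

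UMIs were summed over barcodes. Shares carry exact binomial, CPM exact Poisson and ratios exact conditional intervals. With 1 library a group there is no test and no p-value. Measured means at least 20 UMIs over the barcodes compared, and a gene counts as higher or lower at 2-fold. List medians have 0.5 UMI added. Between libraries, macrophage-like genes with at least 30 UMIs, a UMI in at least 5 barcodes of the higher library and at least 20% of the CPM of their highest class were ranked by the interval bound nearest 1, and the first 4 a direction were named, apart from genes that are not reported here. No ribosomal or mitochondrial gene, antigen receptor or globin could be named. Against other barcodes, the first 10 higher and 5 lower by their smallest ratio over the libraries were named. In each list the 4 genes with most UMIs, and genes singled out after their values were seen, are described. Functions were checked on simulated counts. Alternatives covered depth, thresholds, genes of the rule, doublets, filters, clustering and markers.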

Additional observations from a re-analysis of the deposited data

How the results depend on the processing

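Across the alternatives tried, 114 of 118 values of shares, ratios and make-up lay within the counting interval of the value reported. The alternatives reuse mostly the same barcodes and these intervals are wide, so this count is a weak check. The exceptions all concern the class given to a dividing barcode. With lineages from markers alone, macrophage-like barcodes were 20.5% of the dividing barcodes in NASH, against 41.0% from clusters, and T or NK cell-like barcodes were 16.4% in Con, against 29.1%. With cell cycle genes kept among the variable genes, hepatocyte-like barcodes were 0% in NASH-T and 0% in Con, and mixed clusters then held 6 dividing barcodes in NASH-T, 8 in NASH and 12 in Con. Over all barcodes, ratios against Con stayed below 1 in every alternative run, though the interval of NASH over Con reached past 1 when thinned, without ECT2 and with other late genes in place of the rule, and that of NASH-T over Con when thinned. Among named genes, 4 of 63 values moved, among them CCSER1 when thinned, and ATP8B4 and CCSER1 within the MSR1 cluster. Restricting to that cluster, leaving out mixed clusters and the S-phase list were chosen after seeing the data. Of the other 6 late genes planned in place of the rule, 5 were measured.

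No paired analysis was possible because each group is 1 library, and leaving out replicates was not run for the same reason. The numbers of dividing cells are small, and pooling hides differences between goats. Small classes, single barcodes and free RNA limit the shares.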
